A study of Mus musculus with 6 samples.

Results

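Ribosome biogenesis factors are described here by 10 genes, chosen by symbol but with earlier results of these data known: Ncl, Npm1, Fbl, Nop56, Nop58, Nop10, Dkc1, Polr1a, Polr1b and Ubtf. All 10 were found among the 34745 genes of the expression table, and all 10 passed the filter of at least 1 FPKM (fragments per kilobase of transcript, scaled to library size) in at least 2 libraries, which left 13233 genes. RNA was sequenced from pancreatic islets of C57BL/6 mice aged 8 weeks, in 6 libraries of 3 groups. The WT group (2 libraries) has a wild-type genotype. The KO group (2 libraries) carries the genotype Beta RapKO, a line named for loss of Rptor, the gene of the mTORC1 subunit Raptor, in beta cells. The KO+DNMT3A group (2 libraries) is Beta RapKO with Dnmt3a expression, which the series' design text writes as LvDnmt3a. The driver of the deletion, the vector of the Dnmt3a expression and the meaning of the term GFP in column names are not given in the sources used here. The labels do not tie libraries to individual mice, so the p-values reflect only how far these libraries differ, which may be technical.

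Ribosomes are built in the nucleolus. RNA polymerase I, with the catalytic subunits encoded by Polr1a and Polr1b, transcribes the ribosomal RNA precursor from promoters bound by UBTF. Small nucleolar RNAs then guide its chemical modification: the box C/D particle holds the methyltransferase fibrillarin (Fbl) with NOP56 and NOP58, and the H/ACA particle holds the pseudouridine synthase dyskerin (Dkc1) with NOP10. Nucleolin (Ncl) and nucleophosmin (Npm1) are abundant nucleolar proteins that help process and assemble the particles. mTORC1 and the transcription factor MYC are known to drive this pathway in growing cells, and mTORC1 acts on many ribosomal protein mRNAs through a run of pyrimidines at their start.

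The libraries differed in depth and in cell content before any group was compared. Among genes with a single annotated transcript, the commonest low value of FPKM times length was taken as 1 fragment. This gave 244792 fragments for WT replicate 1, the shallowest library, and between 780242 and 1919987 for the rest. Ins1 and Ins2 took 0.17% and 0.11% of the summed FPKM in WT replicate 1 and KO replicate 2, against 16.47% to 30.49% elsewhere. Mitochondrially encoded genes took 44.8% and 50.9% there and 16.5% to 26.5% elsewhere. Of 10 beta cell markers, Mafa was listed at 0 in both of these insulin-poor libraries and Slc2a2 in WT replicate 1, while Nkx6-1 stayed detectable there (42.97 and 49.4 FPKM, with 66.2 to 160.2 in the rest). Of 7 acinar markers, 6 or 7 were listed at 0 in each library; Cela1 was at 0 in both WT libraries and at 4.06 to 10.45 FPKM in the other 4. Duct markers (6 of 6 measured) summed to 2448 FPKM in WT replicate 1, beside 86.8 to 959 in the rest. Spp1 and Mmp7, at 1510 and 639 FPKM, led that sum, and they and Sox9 were highest in WT replicate 1. Krt19, Krt7 and Clu were instead highest in KO+DNMT3A replicate 1 (94.6, 55.9 and 259 FPKM, against 64.8, 45.6 and 167 in WT replicate 1). Rptor was 0.8 and 1.06 FPKM in WT, 0.38 and 1.51 in KO, and 0.71 and 1.93 in KO+DNMT3A, so the highest value outside KO+DNMT3A was that of the library labelled KO replicate 2. Dnmt3a was 2.94 and 4.43 FPKM in WT, 3.19 and 2.5 in KO, and 3.62 and 3.8 in KO+DNMT3A, so neither target gene separated the libraries as labelled. Rptor was at most 1.93 FPKM, and its loss is named for beta cells while bulk islets were sequenced. These values therefore cannot show whether the deletion took place.

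Promoter sequence was at hand for 8 of the 10 members, as windows from 250 bases before to 50 after each RefSeq start (GRCm38.p6); Fbl and Npm1 were not matched. The 120 bases before the start are shown for 4 of them. Nop10 and Polr1b are shown because their stretches hold the longest run of letters that 2 members share, and Ncl and Dkc1 because their levels followed the same order over the libraries under both scalings given below. Capitals mark the shared run in the first pair and the GC box GGGCGG, read on either strand, in the others; the stretch of Dkc1 holds no GC box.
Nop10, chr2:112261806-112261925, plus strand: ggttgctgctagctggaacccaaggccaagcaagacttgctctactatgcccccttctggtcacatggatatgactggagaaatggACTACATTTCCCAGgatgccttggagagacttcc
Polr1b, chr2:129100876-129100995, plus strand: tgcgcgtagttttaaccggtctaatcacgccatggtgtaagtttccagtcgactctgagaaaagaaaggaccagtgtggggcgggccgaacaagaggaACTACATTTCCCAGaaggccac
Ncl, chr1:86359456-86359575, minus strand: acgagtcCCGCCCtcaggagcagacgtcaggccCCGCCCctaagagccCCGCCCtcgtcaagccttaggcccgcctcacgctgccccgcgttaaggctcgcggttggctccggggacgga
Dkc1, chrX:75095734-75095853, plus strand: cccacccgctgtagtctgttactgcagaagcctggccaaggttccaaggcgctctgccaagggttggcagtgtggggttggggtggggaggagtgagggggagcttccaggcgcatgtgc

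The run ACTACATTTCCCAG begins 34 bases before the start of Nop10 and 22 before that of Polr1b. It is 14 letters long, the next longest shared run among the 7 members with a single window has 10, and 93 of all 32851 windows (0.283%) hold it on either strand; runs with a letter repeated 5 times were left out. The E-box CACGTG, the letters that MYC and its partner MAX prefer, was in none of the 13 windows of the 8 members and in 7.2% of all windows. The GC box was in 9 of the 13 member windows, which belong to 5 members (Ncl, Nop56, Nop58, Polr1b and Ubtf), and in 35.7% of all windows. A start with C followed by 4 pyrimidines was in 0 of the 13 member windows, in 19.2% of 78 windows of 66 cytosolic ribosomal protein genes and in 2.5% of all windows. This match depends on the exact base of the annotated start, and 6 of the 13 member windows are of Ubtf. With so few windows, 0 matches cannot show that the members lack such a start or an E-box. An E-box outside the windows would not be seen. These are matches of letters in fixed windows, and no measurement here bears on binding.

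The members spanned a wide range of levels, and the order by level was similar in most libraries. Nop10, Npm1, Ncl and Fbl were the 4 highest members in 5 of the 6 libraries and made up 75.4% to 88.45% of the members' summed FPKM in all 6. In WT replicate 1 the first 3 led, followed by Nop58, because Fbl was listed at 0 there. Polr1a, Polr1b and Nop56 held the 3 lowest places in 5 libraries, and in WT replicate 1 only Fbl was lower than they were. Together the 10 genes summed to 149.9 and 116.4 FPKM in WT, 137.8 and 105.6 in KO, and 115.4 and 110.3 in KO+DNMT3A. That was 0.0165% to 0.0261% of each library's summed FPKM, and the groups overlapped. Levels per length depend on the transcript lengths the authors used, which are not given in the sources used here: the principal coding transcript of Ncl in GENCODE M21 has 8202 bases, and a shorter one would give a higher FPKM for the same fragments.

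**Figure D1:**
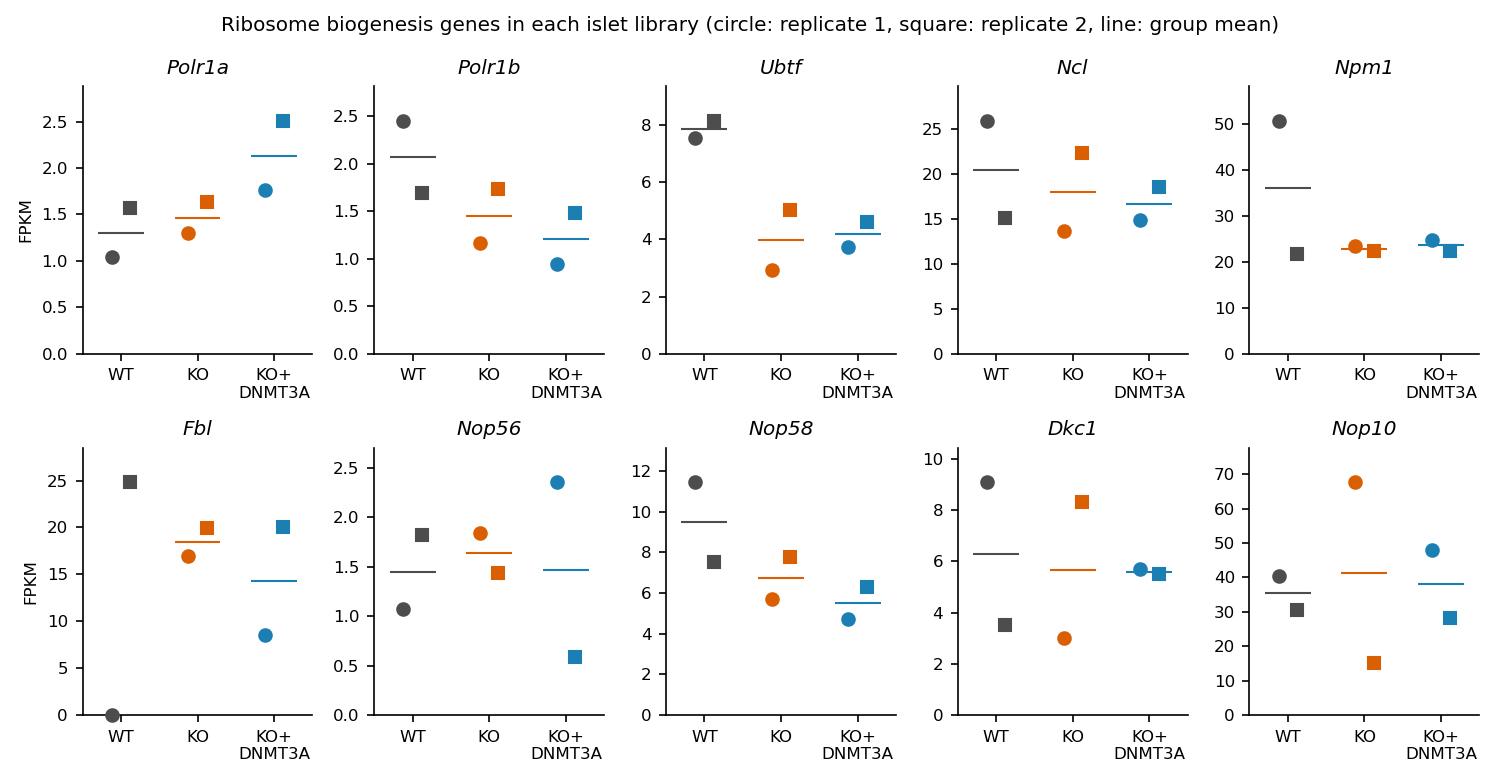
FPKM (vertical axis, from 0) of each member in the 6 libraries, by group; circles are replicate 1, squares replicate 2 and lines group means, drawn only where no library of the group is listed at 0. Both WT libraries lie above all others for Ubtf, at 7.56 and 8.16 FPKM, while the KO replicates of Nop10 lie apart at 67.66 and 15.02 FPKM.

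Among the RNA polymerase I members, Ubtf was the one with both WT values above all other libraries. Taf1a, a further gene of this role described below, had that order too. Of 15 genes listed for the role, 3 were lower in KO than in WT without overlap and 0 were higher. Over all genes tested, 10.5% were lower and 9.36% higher in that way. UBTF is the HMG-box protein that shapes active ribosomal RNA genes. Ubtf (ENSMUSG00000020923, chromosome 11, 102304560 to 102319742, minus strand, GRCm38/mm10) reached 7.56 and 8.16 FPKM in the WT libraries, against 2.92 and 5.04 in KO and 3.73 and 4.62 in KO+DNMT3A. Both WT values lay above the 4 others, and KO and KO+DNMT3A overlapped. Mean WT FPKM was 7.86 ± 0.42 and mean KO FPKM 3.98 ± 1.5 (SD, n = 2), a ratio of 0.506. The log2 fold change of FPKM + 1 was -0.86 (SE 0.52) for KO against WT and -0.78 (SE 0.52) for KO+DNMT3A against WT, and neither passed (limma adjusted p = 1 and 0.997). Both comparisons use the same WT libraries. Without the 2 insulin-poor libraries they were -1.22 and -0.83. The values rest on about 8.7 to 37.3 fragments per library if the principal transcript is assumed. Markers of cycling cells (7 of 7 measured) also had both WT sums above the others. They summed to 14.1 and 17.3 FPKM in WT, 6.51 and 7.5 in KO, and 4.03 and 2.93 in KO+DNMT3A. Cdk1 and Ccnb1 were listed at 0 in WT replicate 1, and Ccnb1 also in KO replicate 2 and KO+DNMT3A replicate 2. Outside WT the orders differed: the lowest marker sum was in KO+DNMT3A replicate 2 and the lowest Ubtf in KO replicate 1. The part of these markers in the Ubtf values was not tested. In bulk islets, fewer cells of a type and less RNA per cell cannot be told apart.

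The genes of the catalytic subunits differed in which group lay at the top. Polr1a (ENSMUSG00000049553, chromosome 6, 71909053 to 71984935) encodes the largest subunit and was 1.04 and 1.57 FPKM in WT, 1.3 and 1.63 in KO, and 1.76 and 2.51 in KO+DNMT3A. Both KO+DNMT3A values lay above the 4 others. Polr1b (ENSMUSG00000027395, chromosome 2, 129100995 to 129126594) encodes the second-largest subunit and was 2.45 and 1.69 FPKM in WT, 1.16 and 1.73 in KO, and 0.94 and 1.48 in KO+DNMT3A. Both KO+DNMT3A values lay below both WT values, and KO overlapped each group. The ratio of Polr1a to Polr1b was 0.425 and 0.927 in WT, 1.12 and 0.944 in KO, and 1.88 and 1.7 in KO+DNMT3A. Both KO+DNMT3A ratios lay above the 4 others, while WT and KO were parted only by 0.927 and 0.944. How often other gene pairs separate in this way was not counted. The fold changes for KO+DNMT3A against WT were 0.44 (SE 0.51) for Polr1a and -0.48 (SE 0.52) for Polr1b on the log2 scale, and both had a limma adjusted p of 0.997; without the 2 insulin-poor libraries they were 0.28 and -0.3. Few fragments lie behind these values, about 2.3 to 31.1 per library for Polr1a and 2.4 to 7.2 for Polr1b.

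**Figure D2:**
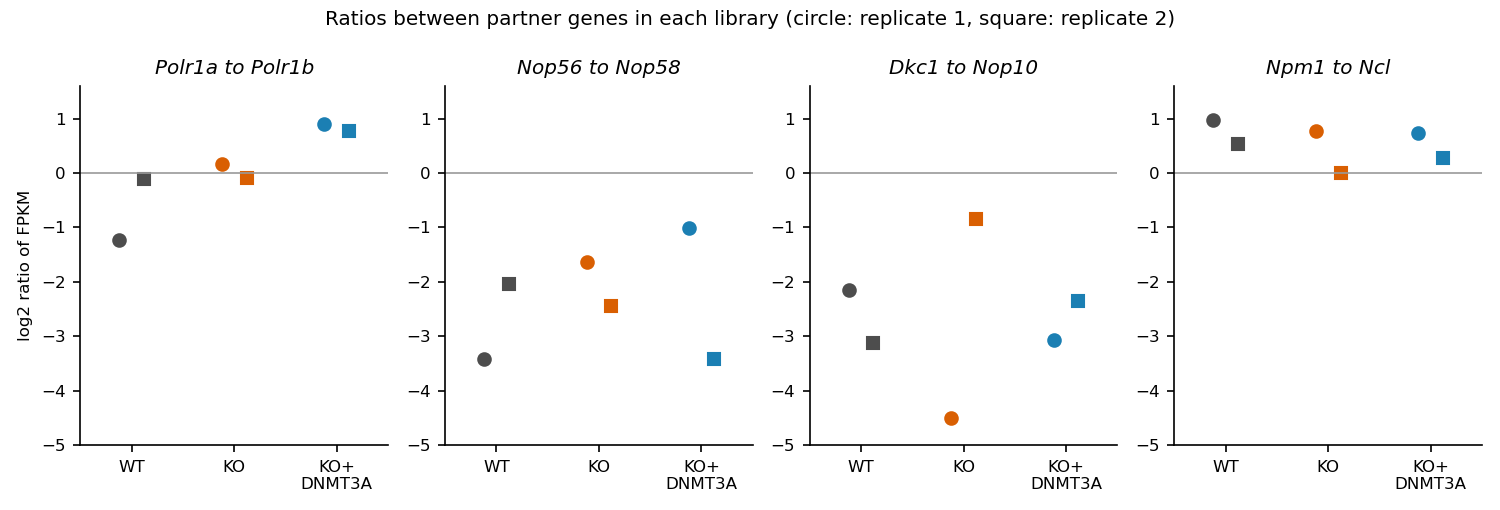
Log2 ratio of FPKM between partner genes (vertical axis) in each library, by group; circles are replicate 1 and squares replicate 2. The ratio of Polr1a to Polr1b is highest in the KO+DNMT3A libraries, at 0.91 and 0.76, while Dkc1 to Nop10 ranges from -4.5 in KO replicate 1 to -0.85 in KO replicate 2.

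Of the nucleolar proteins, Ncl and Npm1 were both highest in WT replicate 1. Ncl (ENSMUSG00000026234, chromosome 1, 86344719 to 86359400, minus strand), whose protein binds the ribosomal RNA precursor, was 25.95 and 15.08 FPKM in WT, 13.71 and 22.41 in KO, and 14.9 and 18.53 in KO+DNMT3A. The 2 highest values came from the 2 insulin-poor libraries, and the groups overlapped. Npm1 (ENSMUSG00000057113, chromosome 11, 33152287 to 33163206, minus strand), the gene of a histone and ribosomal protein chaperone, reached 50.77 FPKM in WT replicate 1, while the remaining 5 libraries lay between 21.69 and 24.85. Its replicates differed 1.06-fold in KO and 1.11-fold in KO+DNMT3A. The 50.77 FPKM rest on about 20.3 fragments. That library had the highest sums of duct markers and of stellate and fibroblast markers (1041 FPKM, with 140.7 to 332.7 in the rest). Its macrophage marker sum was also the highest, by a small margin (508.6 FPKM, beside 487.7 in KO replicate 1). The part of these markers in the Npm1 value was not tested. The log2 fold change of Npm1 was -0.52 (SE 0.61) for KO against WT and 0.07 without WT replicate 1. Npm1 has many processed pseudogenes, so its level is uncertain where the counting could split reads among them.

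The box C/D genes differed from each other in how well they were measured. Fbl (ENSMUSG00000046865, chromosome 7, 28169710 to 28179269) encodes the enzyme that methylates ribosomal RNA and was 24.81 FPKM in WT replicate 2, 16.94 and 19.9 in KO, and 8.54 and 20.07 in KO+DNMT3A. It was listed at 0 in WT replicate 1. At that library's depth, the median of the other 5, 19.9 FPKM, would come to about 5.83 fragments on the principal transcript. A listed 0 need not mean absence in that library, where 26.6% of all genes tested were listed at 0, against 3.0% to 9.4% in the others. A fitted fold of Fbl against WT therefore depends on the pseudocount and is no measure of its change: for KO it was 1.93 on the log2 scale, 3.55 with a pseudocount of 0.1, 2.89 after the rescaling described below and -0.41 without WT replicate 1. Between KO+DNMT3A and KO its groups overlapped (log2 fold change -0.45, SE 1.33).

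NOP58 and NOP56 are the paralogous core proteins of the box C/D particle. Nop58 (ENSMUSG00000026020, chromosome 1, 59684971 to 59719044) stood at 11.45 and 7.51 FPKM in WT, 5.71 and 7.8 in KO, and 4.74 and 6.3 in KO+DNMT3A. Both KO+DNMT3A values lay below both WT values, with a log2 fold change of -0.67 (SE 0.53, limma adjusted p = 0.997), and -0.4 without the insulin-poor libraries. Nop56 (ENSMUSG00000027405, chromosome 2, 130274430 to 130279313) was lower throughout, at 1.07 and 1.82 FPKM in WT, 1.84 and 1.43 in KO, and 2.35 and 0.59 in KO+DNMT3A. The highest and the lowest value both came from KO+DNMT3A. These levels correspond to only 0.5 to 8.5 fragments on the principal transcript, and the KO+DNMT3A replicates differed 4.02-fold, so no order of the groups is read from Nop56. The ratio of Nop56 to Nop58 ranged from 0.093 to 0.497. Nop56 overlaps Idh3b on the opposite strand, and whether the counting used strand is not given in the sources used here.

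Replicates of the H/ACA pair lay far apart. Nop10 (ENSMUSG00000027133, chromosome 2, 112261926 to 112263269) encodes a small core protein of the particle and has a single annotated transcript of 1109 bases, so its fragments could be counted. They were 11 and 33 in WT, 107 and 13 in KO, and 102 and 35 in KO+DNMT3A. The FPKM values, with exact 95% Poisson intervals that cover counting error only, were as follows. WT replicates 1 and 2 had 40.53 (20.2 to 72.5) and 30.56 (21.03 to 42.9) FPKM. KO replicates 1 and 2 had 67.66 (55.5 to 81.8) and 15.02 (8.0 to 25.7) FPKM. KO+DNMT3A replicates 1 and 2 had 47.89 (39.06 to 58.1) and 28.24 (19.7 to 39.3) FPKM. The KO replicates differed 4.5-fold and their counting intervals do not overlap, while the group means of 35.5, 41.3 and 38.07 FPKM lie close together. The 2 highest values came from KO replicate 1 and KO+DNMT3A replicate 1, the deepest libraries, with 1425782 and 1919987 fragments; the part of depth was not tested.

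Dkc1, the partner of Nop10, had the opposite order in the KO libraries. Dkc1 (ENSMUSG00000031403, chromosome X, 75095854 to 75109777) stood at 9.09 and 3.51 FPKM in WT, 3 and 8.33 in KO, and 5.7 and 5.51 in KO+DNMT3A. Its 2 highest values came from the insulin-poor libraries, and the KO+DNMT3A libraries, at 5.61 ± 0.135 FPKM (SD, n = 2), lay between the extremes of both other groups. Replicates differed 2.59-fold in WT and 2.78-fold in KO, and 1.03-fold in KO+DNMT3A. KO replicate 1 held the highest Nop10 and the lowest Dkc1, and KO replicate 2 the lowest Nop10 and the second-highest Dkc1. The ratio of Dkc1 to Nop10 was 0.044 and 0.555 in those libraries, and 0.115 to 0.224 in the other 4. About 6.2 to 30.7 fragments lie behind each Dkc1 value.

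KO was compared with WT, by the labels the effect of Raptor loss in beta cells on islet transcripts. No member passed the limma test, and no gene did: 0 of 13233, or 0% (240 genes, 1.81%, had an unadjusted p under 0.05; none of them was a member). By the fitted log2 fold change 7 of 10 members were lower in KO, against 47.3% of all genes tested. Ubtf was the single member whose groups did not overlap, and it was lower; among all genes, 10.5% were lower and 9.36% higher without overlap. The median over the members was -0.15, beside 0.03 over all genes. Without WT replicate 1 the order turned round, with -0.08 for the members and -0.16 for all genes, and without KO replicate 1 the medians were -0.08 and -0.04. Of the 3 members with a higher fitted value, Fbl rests on the library in which it was listed at 0, and Nop56 and Polr1a had 0.12 (SE 0.58) and 0.1 (SE 0.51).

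KO+DNMT3A was compared with KO, by the labels the effect of added Dnmt3a. No gene passed (0%; 147 genes, 1.11%, had an unadjusted p under 0.05, none of them a member). The members divided evenly, 5 higher and 5 lower, where 31.8% of all genes were lower. Polr1a was the member whose groups did not overlap, and it was higher, with a log2 fold change of 0.34 (SE 0.51); among all genes 17.2% were higher and 5.43% lower without overlap. The median over the members was -0.02 and over all genes 0.19, and with median scaling 9 of 10 members were lower and the median of all genes was -0.0023. With quantile normalization 8 of 10 were lower, and in KO against WT 9 of 10.

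The remaining contrast set KO+DNMT3A against WT. Again no gene passed (0%; 379 genes, 2.86%, had an unadjusted p under 0.05, none of them a member). In this comparison 7 of 10 members were lower, against 35.2% of all genes, with a median of -0.15 beside 0.23. Nop58, Polr1b and Ubtf were lower without overlap and Polr1a higher, so 4 members had separate groups, where 7.87% of all genes were lower and 19.2% higher in that way. Without the 2 insulin-poor libraries 5 members were lower and 5 higher, with a median of -0.09 beside 0.02. The comparison shares its libraries with both others. Macrophage markers were lower as well: 8 of 8 had a lower fitted value in KO+DNMT3A than in WT, 7 of them without overlap, with a median of -1.72. They summed to 508.6 and 482.7 FPKM in WT, 487.7 and 314.7 in KO, and 216.8 and 145.3 in KO+DNMT3A, and none was listed at 0. Their part, and that of the cycling markers, in the values of Nop58, Polr1b, Ubtf and Taf1a was not tested.

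**Figure D3:**
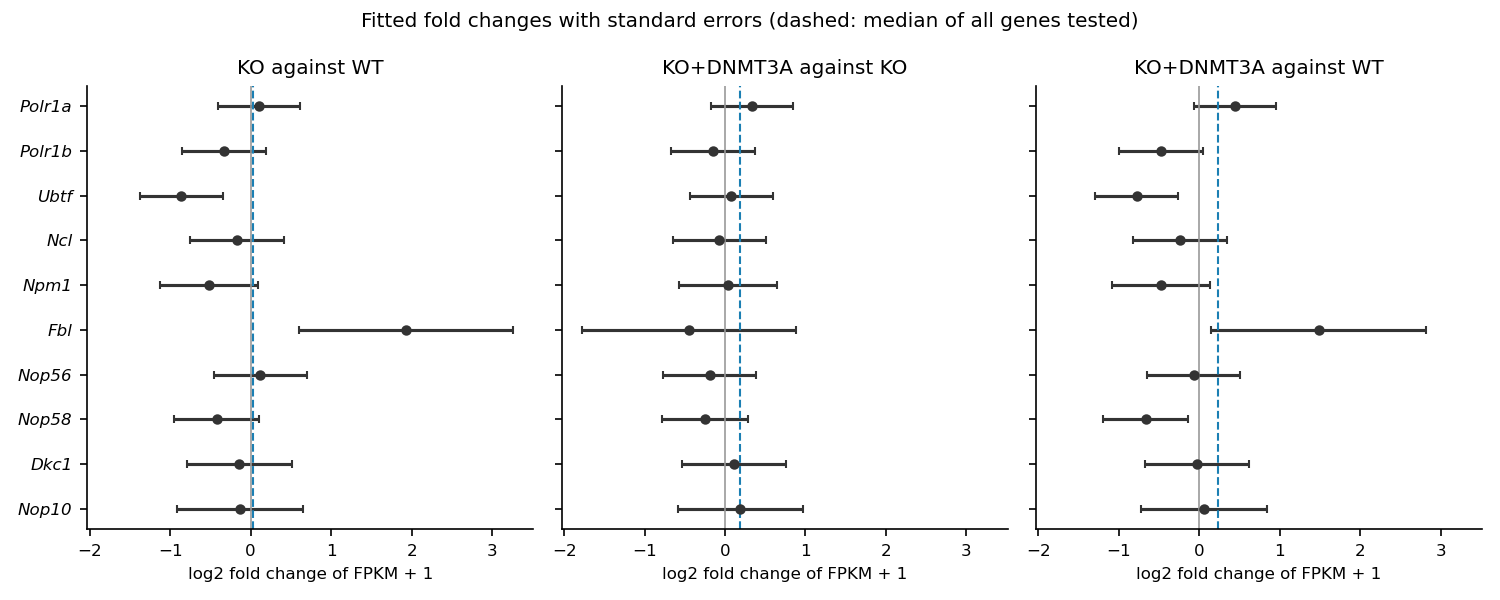
Fitted log2 fold change of FPKM + 1 (horizontal axis) of each member in the 3 comparisons; bars are standard errors and the dashed line is the median of all genes tested. Ubtf lies farthest below 0 in both comparisons with WT, at -0.86 and -0.78, and the wide bar of Fbl, with an SE of 1.33, comes with the library listed at 0.

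Part of the members shared an order over libraries that crossed the groups. For 4 of 10 members, Ncl, Nop58, Dkc1 and Polr1b, WT replicate 1 and KO replicate 2 held the 2 highest values, which was so for 6.45% of all genes tested. No member had both of these libraries below the other 4, where 24.9% of all genes did. That share includes genes listed at 0: 26.6% of all genes tested were at 0 in WT replicate 1 and 3.0% to 9.4% in the others. Of 80 ribosomal protein genes, 13 (16.2%) had both libraries on top and 3 had both at the bottom. After FPKM were rescaled without mitochondrially encoded, insulin, amylin and ribosomal RNA-associated genes, Ncl and Dkc1 still had that order, beside 5.36% of all genes. Nop58 and Polr1b then had WT replicate 2 in second place. The order moves with the low insulin share and the high mitochondrial share of those libraries, and their part was not tested.

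Other genes of the pathway were taken from lists by role. Of 8 nucleolar scaffold and chaperone genes, 4 had the same 2 libraries on top: Ncl, Tcof1, Gnl3 and Ddx21. Gnl3, which encodes nucleostemin, was 60.75 and 36 FPKM in WT, 22.35 and 53.07 in KO, and 22.68 and 25.18 in KO+DNMT3A. Its 2 highest values came from the insulin-poor libraries. Ddx21, an RNA helicase gene of the nucleolus, was 12.92 and 9.31 FPKM in WT, 6.95 and 21.62 in KO, and 8.46 and 6.79 in KO+DNMT3A. Tcof1, whose product treacle supports RNA polymerase I and which was named after its values were seen, was 19.73 and 5.54, 2.29 and 13.29, and 4.07 and 8.52 FPKM in the same order. Npm1, Npm3, Nolc1 and Nop53 did not follow this order. Of the H/ACA genes, Nhp2, another core protein gene, followed it, with 32.48 and 12.25 FPKM in WT, 10.75 and 14.55 in KO, and 10.65 and 7.11 in KO+DNMT3A. Over all 138 biogenesis genes on the lists that are not members, 19 (13.8%) had both libraries on top and 18 had both at the bottom.

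**Figure D4:**
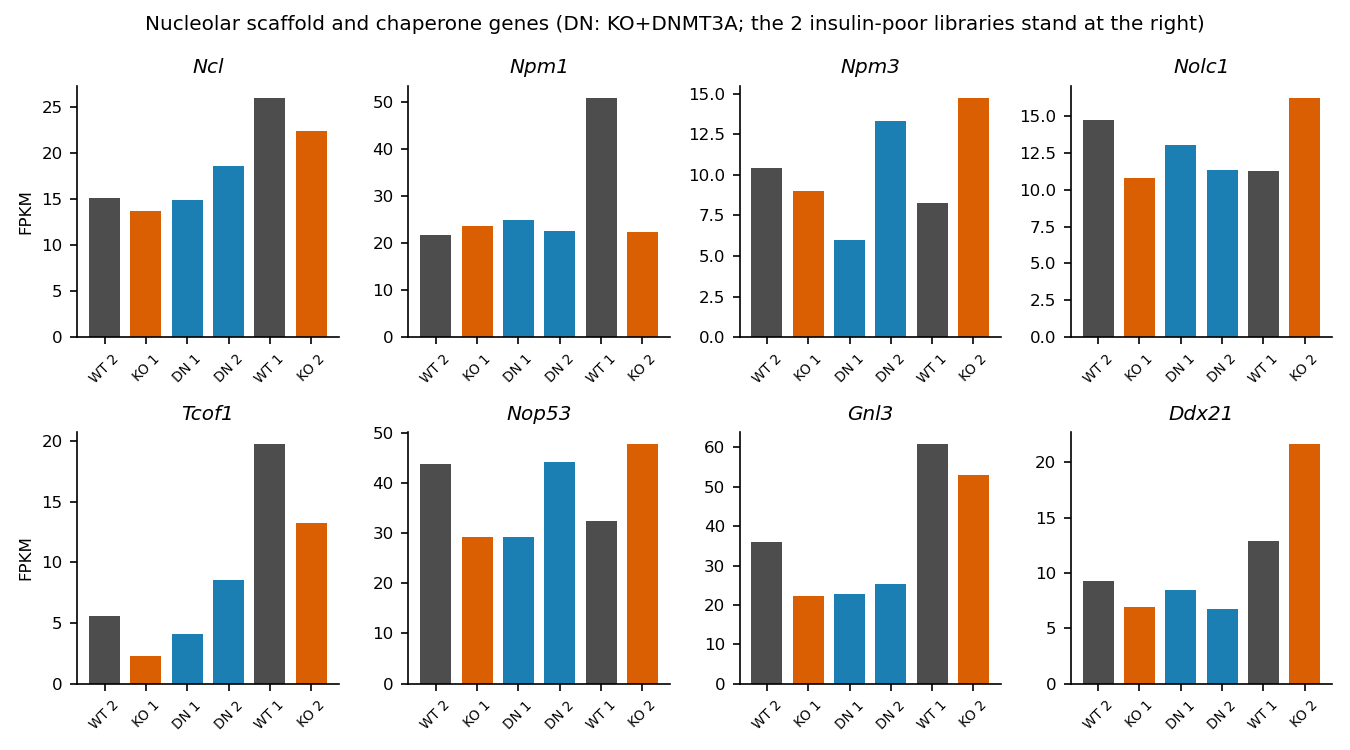
FPKM (bars, vertical axis from 0) of the 8 nucleolar scaffold and chaperone genes in each library, with the insulin-poor libraries WT 1 and KO 2 at the right of each panel. The pair stands above the other 4 libraries for Ncl, Tcof1, Gnl3 and Ddx21 and not for Npm1, Npm3, Nolc1 and Nop53.

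Between groups, the wider pathway showed no called change. Of 148 biogenesis genes measured on the role lists, members included, 0 passed limma in any comparison; 62 were higher and 86 lower in KO than in WT, 88 and 60 in KO+DNMT3A against KO, and 71 and 77 in KO+DNMT3A against WT. Their medians were -0.13, 0.11 and -0.02 on the log2 scale, beside 0.03, 0.19 and 0.23 over all genes. At an unadjusted p under 0.05 stood 2 of the 148 in KO against WT (Nol10 and Nop2, higher), 2 in KO+DNMT3A against KO (Taf1a and C1d, lower) and 1 in KO+DNMT3A against WT (Taf1a, lower). These shares lie near or below the 1.81%, 1.11% and 2.86% of all genes, so the values that follow are a description only. Taf1a, a subunit gene of the factor that brings RNA polymerase I to its promoter, was 12.57 and 4.56 FPKM in WT, 3.84 and 4.38 in KO, and 0.71 and 1.22 in KO+DNMT3A. The 3 groups did not overlap, but WT and KO were parted only by 4.56 and 4.38 FPKM. How many of all genes have 3 separate groups was not counted. The log2 fold change of Taf1a for KO+DNMT3A against WT was -2.16 (SE 0.6, limma adjusted p = 0.997). C1d, an exosome cofactor gene, was 8.06 and 6.97 FPKM in WT, 11.67 and 7.58 in KO, and 4.56 and 1.18 in KO+DNMT3A. Nop2, the gene of a ribosomal RNA methyltransferase of the large subunit, was listed at 0 in WT replicate 1 and was 3.38 FPKM in WT replicate 2, 6.69 and 8.01 in KO, and 6.16 and 4.71 in KO+DNMT3A. Nol10 was likewise listed at 0 in WT replicate 1 and was 1.02 FPKM in WT replicate 2, 1.63 and 5.52 in KO, and 3.1 and 2.37 in KO+DNMT3A. Without that library the fitted KO-to-WT difference went from 1.99 to 0.93 for Nop2 and from 1.54 to 1.03 for Nol10 (log2).

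Myc and the ribosomal protein genes were read beside the members. Myc was 4.11 and 2.58 FPKM in WT, 1.98 and 2.84 in KO, and 2.2 and 1.89 in KO+DNMT3A. Its 2 highest libraries were again WT replicate 1 and KO replicate 2. After rescaling Myc no longer had both of those libraries on top. Of 8 MYC network genes tested, Myc was the only one with that order before rescaling, and 3 had both libraries below the other 4. Both KO+DNMT3A values of Myc lay below both WT values (log2 fold change -0.49, SE 0.52), as was so for 7.87% of all genes tested. The 87 cytosolic ribosomal protein genes summed to 6986 and 6492 FPKM in WT, 4090 and 7386 in KO, and 3878 and 6397 in KO+DNMT3A. KO replicate 1 and KO+DNMT3A replicate 1 were thus low, the same libraries in which Nop10 was high. Ribosomal protein signal per member signal was 29.7 and 33.6 in those libraries and 46.6 to 69.96 in the other 4. Nop10 alone made 67.66 of the members' 137.8 FPKM in KO replicate 1 and 47.89 of 115.4 in KO+DNMT3A replicate 1. The ratio therefore moves with Nop10 as well as with the ribosomal protein sum, and is no measure of the members in general. Many ribosomal protein genes have processed pseudogenes, so their levels are uncertain.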

How the data were processed

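The 10 members and all gene lists were chosen with earlier results of these data known. Poly-A RNA of islets was sequenced, per the labels' protocols. Each library has 1 column of FPKM, as deposited and named in the file's header. The submitters' processing notes name mm10, edgeR, StringTie 1.3.0 and HISAT2 2.0.4 without saying what each did. Symbols and positions come from GENCODE M21 (GRCm38/mm10); 478 of 34745 genes had none.

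Depth was inferred from genes with 1 annotated transcript, with the commonest low value of FPKM times length taken as 1 fragment. That value was then tuned to give the most whole values, and 84.5% to 91.8% of values up to 20 fragments were whole within 0.01. Being the tuned quantity, this share is no independent check. The 13233 genes past the filter were fitted as log2(FPKM + 1) over all 6 libraries in limma 3.58.1 (R 4.3.3; trended, robust), two-sided, with Benjamini-Hochberg adjustment at 0.05; the fit was tested on simulated data. Alternatives were a pseudocount of 0.1, 2 filters, 3 scalings, no trend, only the groups compared, a replicate block and libraries left out. Named pathway genes are up to 2 per list and comparison with the smallest p, groups not overlapping and a mean of at least 2 FPKM. Python 3.11.15 was used for tables and figures.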

Additional observations from a re-analysis of the deposited data

How the results depend on the processing

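Calls did not depend on any alternative run: 0 genes passed limma in each of 51 fits over the 3 comparisons, the replicate block included (0 genes in each comparison, with 285, 154 and 391 genes at an unadjusted p under 0.05, beside 240, 147 and 379). Same-numbered libraries did not deviate together in every pair (correlations of -0.269, 0.101 and 0.318), so the numbers were not taken as pairs.

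Ubtf stayed lower than WT under all 16 alternatives, from -1.22 to -0.55 for KO and from -1.0 to -0.66 for KO+DNMT3A. Both WT values lie above all others, so leaving libraries out could not change this sign. Alternatives that change only the filter or the test leave the fold change as it was. Leaving out 1 library moved the members' median from -0.52 to -0.08 (KO against WT), -0.27 to 0.05 (KO+DNMT3A against KO) and -0.61 to -0.09 (KO+DNMT3A against WT); -0.52 and -0.61 came without WT replicate 2. None of the values below passed a test, and the cause of each change of sign was not tested.

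Without WT replicate 1 and KO replicate 2 together, the fold changes that changed sign were Npm1 0.11, Fbl -0.52, Nop10 1.12 and Polr1a -0.16 in KO against WT. In KO+DNMT3A against KO they were Ncl 0.26, Nop10 -0.86 and Polr1b 0.02, and in KO+DNMT3A against WT Ncl 0.13, Npm1 0.12, Fbl -0.86 and Dkc1 0.55. With quantile normalization they were Nop56 -0.03 and Polr1a -0.03 (KO against WT), Npm1 -0.18, Dkc1 -0.13, Ubtf -0.14 and Nufip1 -0.01 (KO+DNMT3A against KO) and Nop10 -0.06 (KO+DNMT3A against WT). With median scaling they were Npm1 -0.21, Nop10 -0.06, Dkc1 -0.12, Ubtf -0.13 and Nufip1 -0.01 (KO+DNMT3A against KO) and Nop10 -0.19 (KO+DNMT3A against WT).

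Leaving out 1 library, fold changes that changed sign ranged as follows. In KO against WT they were Ncl -0.54 to 0.21, Npm1 -1.11 to 0.07, Fbl -0.41 to 4.28, Nop56 -0.1 to 0.34, Nop10 -1.18 to 0.92, Dkc1 -0.75 to 0.47 and Polr1a -0.06 to 0.27. In KO+DNMT3A against KO they were Ncl -0.41 to 0.26, Npm1 -0.03 to 0.11, Fbl -1.02 to 0.12, Nop56 -0.73 to 0.35, Nop10 -0.86 to 1.24, Dkc1 -0.5 to 0.72, Polr1b -0.32 to 0.03 and Ubtf -0.23 to 0.4. In KO+DNMT3A against WT they were Ncl -0.61 to 0.13, Npm1 -1.07 to 0.12, Fbl -0.86 to 3.83, Nop56 -0.61 to 0.47, Nop10 -0.31 to 0.43 and Dkc1 -0.61 to 0.55. A group with 1 library left is assumed to vary like the others. The filter of 5 FPKM gave no value for Nop56, Polr1a and Polr1b. By approximate fragments, Nop56 (0.5 to 8.5) and Polr1b (2.4 to 7.2) rest on the fewest, apart from Fbl at 0 in WT replicate 1, and WT replicate 1 is the shallowest library.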
